A study of Homo sapiens with 5 samples.

Results

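The nuclear genes of oxidative phosphorylation were followed over 5 expression arrays of a Ewing sarcoma cell line treated with microRNA mimics. The genes were taken by symbol from the array annotation, as all probe sets whose symbol began with NDUF, UQCR, COX4 to COX8 or ATP5, or was SDHA, SDHB, SDHC, SDHD or CYC1. A probe set is the group of short probes that reports on a transcript. This gave 189 of 54675 probe sets, of which 174 carried 1 symbol and stood for 91 genes, and 15 carried several symbols and were kept apart. SDHB, UQCRFS1 and NDUFA4 were not analysed here.

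The cells were MHH-ES-1, an established human line, and every array came from cells transfected with a synthetic mimic at 50 nM using a lipid reagent and collected after 48 h. The mimic was miR-483-5p on 2 arrays, a scrambled control sequence on 2 arrays and miR-483-3p on 1 array, so there were no untransfected cells. Within each pair the labels name one array a repeat, without stating that it came from its own culture; the p-values therefore reflect array-to-array spread that could be purely technical. For miR-483-3p the test assumes that the lone array varies as the pairs do. Values were linear signals, and their mean after trimming 2% at each end was 149 to 150 on every array. They came with no detection calls, so the background level of dim probe sets is unknown. Brightness depends on the probes, so signals are compared between arrays and not between genes. Of the Ewing sarcoma markers, 5 had signals of 825 to 5092.5, and 4 markers of blood, epithelial, endothelial and liver cells had 5.90 to 169.5, the highest being PECAM1.

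Oxidative phosphorylation passes electrons from NADH and succinate through complexes I and II to ubiquinone, on to complex III, cytochrome c and complex IV, and uses the proton gradient that results to drive ATP synthase. Most of these complexes combine subunits encoded in the mitochondrial genome with subunits encoded in the nucleus, and most of the small accessory subunits are nuclear. In the nucleus the factors NRF1, GABP of the ETS family, YY1 and the ERR receptors are known to bind promoters of these genes.

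Promoters were examined because the members differ in role and chromosome but share this textbook set of regulators. RefSeq promoters of build GRCh38.p14, each of 300 bases from 250 before the transcript start to 50 after it, were available for 76 member genes with 94 starts. The NRF1 core searched was GCGCANGCG, the ETS core CCGGAAGT, the YY1 core AAGATGGCG and the ERR core TCAAGGTCA, all on both strands. The NRF1 core lay in a promoter of 24 of the 76 member genes (31.6%) and of 15.0% of 11614 other genes tested. The 76 include antisense transcripts and genes too dim to be tested, such as COX8C, which holds the NRF1 core. The other genes were all bright enough to be tested. The ETS core was found for 14.5% of member genes against 8.59%, the YY1 core for 11.8% against 3.99% and the ERR core for 1 member gene, SDHD (1.32% against 0.232%). Counted over all 35116 promoters of the table, the shares were 7.52% for NRF1, 4.14% for ETS, 1.75% for YY1 and 0.353% for ERR, against 25.5%, 11.7%, 11.7% and 1.06% of the 94 member promoters. The member promoters had a median GC content of 61.0% against 58.7% over all promoters, and its part in these shares was not tested. In all, 37 of the 76 member genes held at least 1 NRF1, ETS or YY1 core, and the same share over other genes was not counted. A match is a run of letters and does not show that a factor was bound.

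**Figure D1:**
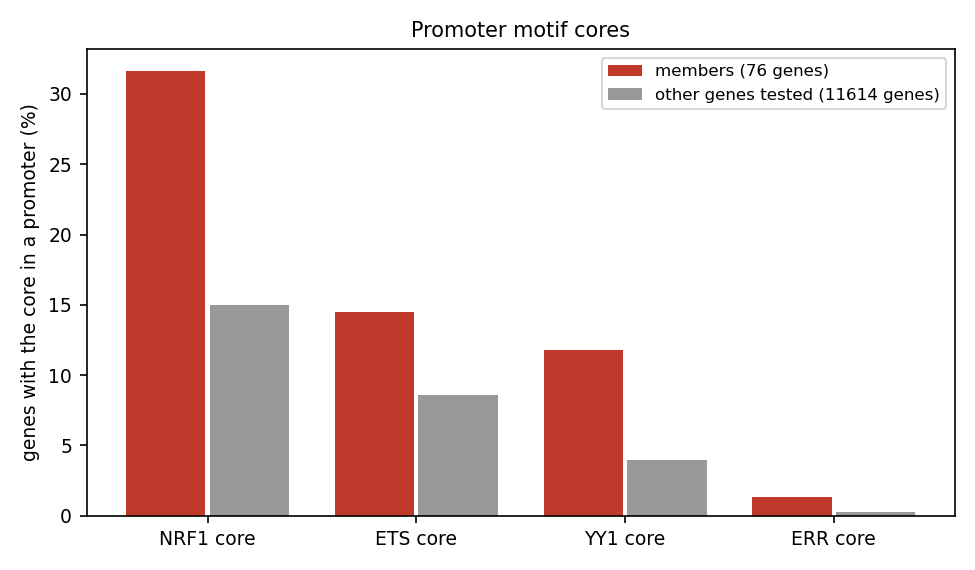
Share of genes, in percent, with each motif core in a RefSeq promoter of 300 bases. Red bars are the 76 member genes, some too dim to be tested, and grey bars the 11614 other genes tested. The NRF1 core is in 31.6% of member genes and 15.0% of the others, and the ERR core is rare in both.

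The promoters below belong to the 5 genes with the lowest p for miR-483-5p and to UQCR11, which adds an ETS core; they were chosen after the values were seen. Capitals mark matches to the cores, and positions count from the start base as 0. NDUFA3 (chr19:54102605-54102904, plus strand) has NRF1 cores at -170 and -73, and SDHA (chr5:218070-218369, plus strand) has 4 NRF1 cores at -166, -117, -68 and -19. UQCR11 (chr19:1605413-1605712, minus strand) has NRF1 cores at -28 and -9 and an ETS core at -117. NDUFA7 (chr19:8321326-8321625, minus strand) has a YY1 core at 14, after the start. ATP5MC1 (chr17:48892537-48892836, plus strand) and NDUFV3 (chr21:42893059-42893358, plus strand) hold none of the 4 cores in this window. No match overlaps another.
NDUFA3: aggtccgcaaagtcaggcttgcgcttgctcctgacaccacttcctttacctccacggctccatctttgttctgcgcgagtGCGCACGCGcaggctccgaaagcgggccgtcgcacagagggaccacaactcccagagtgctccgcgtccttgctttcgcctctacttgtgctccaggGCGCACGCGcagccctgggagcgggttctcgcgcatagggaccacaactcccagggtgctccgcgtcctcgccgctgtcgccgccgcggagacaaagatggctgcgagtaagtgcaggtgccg
SDHA: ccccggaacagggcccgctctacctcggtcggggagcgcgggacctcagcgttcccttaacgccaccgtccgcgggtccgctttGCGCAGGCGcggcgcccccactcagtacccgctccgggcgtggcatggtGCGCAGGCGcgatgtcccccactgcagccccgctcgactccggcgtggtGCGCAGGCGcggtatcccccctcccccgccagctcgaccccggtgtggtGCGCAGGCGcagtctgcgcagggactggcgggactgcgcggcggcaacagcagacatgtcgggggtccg
UQCR11: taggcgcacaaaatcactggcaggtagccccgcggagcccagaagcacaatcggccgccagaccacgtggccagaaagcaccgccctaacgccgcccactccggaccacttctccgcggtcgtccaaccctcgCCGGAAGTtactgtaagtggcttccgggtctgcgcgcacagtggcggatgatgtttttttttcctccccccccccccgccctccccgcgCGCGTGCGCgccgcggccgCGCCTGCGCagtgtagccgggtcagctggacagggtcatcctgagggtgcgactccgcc
NDUFA7: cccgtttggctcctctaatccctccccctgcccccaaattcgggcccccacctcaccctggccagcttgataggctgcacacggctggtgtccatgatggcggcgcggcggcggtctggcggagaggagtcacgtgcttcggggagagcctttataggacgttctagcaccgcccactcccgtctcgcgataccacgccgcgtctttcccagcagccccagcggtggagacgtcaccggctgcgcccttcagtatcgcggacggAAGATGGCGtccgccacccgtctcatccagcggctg
ATP5MC1: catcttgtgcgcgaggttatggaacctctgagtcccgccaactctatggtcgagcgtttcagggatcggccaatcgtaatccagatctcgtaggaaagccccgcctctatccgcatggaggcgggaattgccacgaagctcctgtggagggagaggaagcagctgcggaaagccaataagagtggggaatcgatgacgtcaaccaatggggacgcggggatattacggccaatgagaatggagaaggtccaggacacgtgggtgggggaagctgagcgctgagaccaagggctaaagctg
NDUFV3: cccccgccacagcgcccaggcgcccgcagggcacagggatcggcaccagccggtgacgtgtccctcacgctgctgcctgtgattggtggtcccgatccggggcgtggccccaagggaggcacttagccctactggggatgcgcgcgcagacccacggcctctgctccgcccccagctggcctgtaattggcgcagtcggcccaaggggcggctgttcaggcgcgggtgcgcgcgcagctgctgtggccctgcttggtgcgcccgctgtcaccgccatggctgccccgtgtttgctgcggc

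Most oxidative phosphorylation genes were slightly dimmer with miR-483-5p than in the controls, and no gene passed the test. Signals were compared as log2(signal + 32), a scale that understates the change of dim probe sets, using the brightest probe set of each gene. Of the 91 genes, 85 were bright enough to be tested, and 59 of these were lower with miR-483-5p (69.4%, against 51.5% of all 14591 genes tested). The median log2 difference was -0.11 over the members and -0.01 over all genes. Both miR-483-5p arrays lay below both scrambled arrays for 40 members (47.1%, against 22.2% of all genes) and above both for 5 (5.88%, against 20.3%), while the arrays of the other 40 overlapped. The 5 higher ones were SDHA, NDUFS6, COX6A2, NDUFA10 and NDUFV2. The difference was larger than the gaps within both pairs for 31 members (36.5%, against 30.0% of all genes).

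Few of these differences stood clear of the spread for a single gene. By limma, 0 members and 0 of all genes (0%) had an adjusted p under 0.05. At an unadjusted p under 0.05 there were 7 lower members (8.24%, against 5.41% of all genes) and 1 higher member (1.18%, against 5.30%). An exact permutation test of 2 arrays against 2 cannot give a two-sided p below 0.333. The member median of -0.11 became -0.15 without the first miR-483-5p array and -0.07 without the second. The ratio of 3' to 5' probe set signals of GAPDH, a sign of RNA quality, was 1.09 and 1.10 with miR-483-5p against 1.02 and 0.996 in the controls, and that of ACTB was 1.18 and 1.07 against 1.07 and 1.04; their part in the lower signals was not tested.

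**Figure D2:**
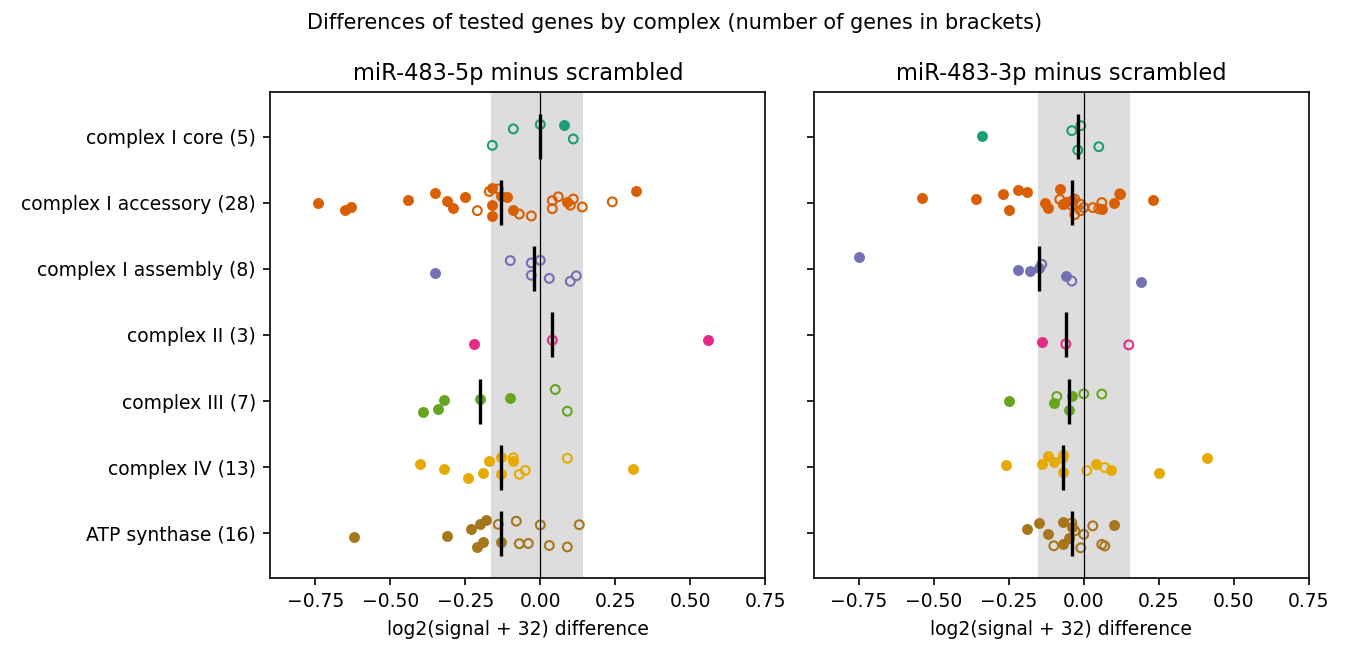
Differences in log2(signal + 32) of the tested genes by complex, miR-483-5p minus scrambled on the left and miR-483-3p minus scrambled on the right, which share the scrambled arrays. Each point is a gene, filled where the arrays of the 2 groups do not overlap; black bars are medians and the grey band holds the middle of all genes tested, from quartile 1 to quartile 3. The medians of complexes III and IV, ATP synthase and the complex I accessory subunits lie between -0.20 and -0.13 on the left.

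**Figure D3:**
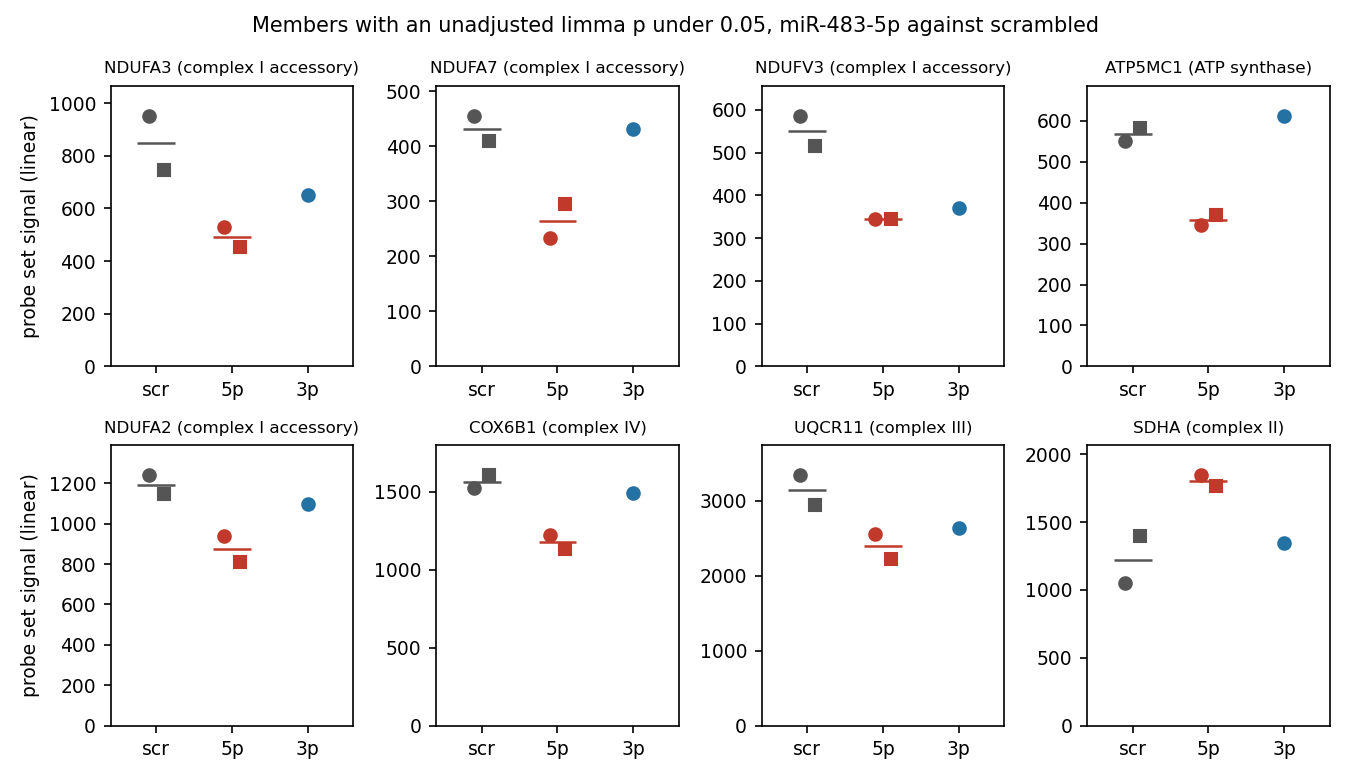
Signals of the 8 members with an unadjusted limma p under 0.05 between miR-483-5p and scrambled (scr), on linear axes that start at 0; circles are the first array, squares the repeat, and bars the mean of 2 arrays. In 7 genes both miR-483-5p arrays lie below both scrambled arrays, and in SDHA above them; the miR-483-3p array lies near the controls for ATP5MC1 and NDUFA7 and near miR-483-5p for NDUFV3.

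Complex I takes electrons from NADH, and its 5 core subunits tested differed little between miR-483-5p and the control. Their median log2 difference was 0.00, with single genes from -0.16 to 0.11, and the median ran from -0.06 to 0.07 over the alternative settings. NDUFS1, which carries iron-sulfur clusters, had signals of 1262 and 1278 with miR-483-5p, 1244 and 1289 with the scrambled control and 1257 with miR-483-3p. NDUFV1, which binds NADH and flavin, had 1706 and 1562, 1419.8 and 1612, and 1569 in the same order. With these probe sets, the brightest of each gene, the groups overlapped for both. The dimmer probe sets of NDUFS1 gave -0.14, -0.25 and -0.27 without overlap and -0.02 with overlap. NDUFV2, an iron-sulfur subunit next to NDUFV1, had 1255 and 1281 with miR-483-5p against 1162.5 and 1228, higher by 0.08 without overlap. NDUFS3, a subunit of the arm that reaches into the matrix, had 1615 and 1285 against 1453 and 1625, an overlap again. The core subunit gene NDUFS8 shares its probe sets with 2 microRNA genes in the annotation; the brightest of them had 1746 and 1499 against 1835 and 1942.

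The accessory subunits of complex I, which surround the core and are needed for its stability, were 28 of the 85 members tested, and 4 of them were lower at an unadjusted p under 0.05 (14.3%, against 5.41% of all genes). With miR-483-5p 19 were lower, 14 of them without overlap (50.0%, against 22.2% of all genes), and 2 were higher without overlap (7.14%, against 20.3%). Their median was -0.13 and stayed below 0 under all 13 alternative settings, from -0.18 to -0.04. The value of -0.04 came without the second miR-483-5p array, where 15 of 28 were lower. NDUFA3 had signals of 530.4 and 455 with miR-483-5p, 951 and 748 with the control and 650.3 with miR-483-3p. The miR-483-5p arrays were thus the lowest, with miR-483-3p between the groups, and the log2 difference of miR-483-5p from the control was -0.74 (SE 0.17, limma adjusted p = 0.332). NDUFA7, part of the matrix arm, had 234 and 296 with miR-483-5p, 455 and 409.5 with the control and 431 with miR-483-3p. Here the miR-483-3p array lay between the control arrays, and the difference for miR-483-5p was -0.65 (SE 0.16, limma adjusted p = 0.332). A second probe set of NDUFA7, with signals of 9.1 to 14.2 under the filter, gave -0.05, and the mean of both gave -0.35.

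NDUFV3, an accessory subunit of the NADH-binding module, was the member with the most even miR-483-5p pair among these, at 344 and 344. The controls had 585 and 516 and the miR-483-3p array 369, so all 3 arrays with a miR-483 mimic lay below both controls. The log2 difference was -0.63 (SE 0.14, limma adjusted p = 0.332) for miR-483-5p, and a second, dimmer probe set of NDUFV3 gave -0.21. NDUFA2, of the same module, had 940.0 and 810.1 against 1239 and 1146, and 1095.5 with miR-483-3p. Its difference was -0.44 (SE 0.15, limma adjusted p = 0.408), and its second probe set gave -0.07 with overlapping arrays. NDUFS6, which binds zinc, went the other way, with 1843 and 1592 against 1224 and 1532, and 1613 with miR-483-3p, higher by 0.32 without overlap although the control arrays themselves differed by 0.32. The subunits that were brightest in the controls, NDUFB9, NDUFAB1 and NDUFB4, had differences of -0.14, 0.14 and -0.11. NDUFAB1 also serves as the acyl carrier protein of mitochondria.

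The NDUFAF genes encode assembly factors of complex I, which are not part of the finished enzyme, and of the 8 tested 1 was lower with miR-483-5p without overlap (12.5%, against 22.2% of all genes) and none was higher without overlap (against 20.3%). Their median was -0.02, and it ran from -0.07 to 0.02 over the alternatives. NDUFAF3, which acts early in assembly, was the lower one, with 168.5 and 122 against 206 and 179, a difference of -0.35. NDUFAF2 had 1020.5 and 962 against 938 and 1049, NDUFAF4 854 and 936 against 952 and 879.5, and NDUFAF8 781 and 659 against 715 and 689. These 3 genes were close to level, with differences of 0.00, -0.03 and 0.03.

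Complex II oxidises succinate, and its 3 genes measured did not move together. SDHA, the flavoprotein that holds the active site, had signals of 1845 and 1766 with miR-483-5p, 1049.6 and 1398 with the control and 1349 with miR-483-3p. It was the one member higher with miR-483-5p at an unadjusted p under 0.05, with a log2 difference of 0.56 (SE 0.17, limma adjusted p = 0.381), 1.48-fold. The control arrays of SDHA also differed, by 0.40 in size, among the 5 widest gaps of the members. Its probe set is of a type, ending in _x_at, that can take up related transcripts; a probe set shared with 3 SDHA pseudogenes had 35.2 and 66.1 against 39.6 and 39.3. SDHC and SDHD anchor the enzyme in the membrane. SDHC had 1546.5 and 1346 against 1343 and 1474, an overlap, with a probe set that also ends in _x_at. SDHD had 1246 and 1373 against 1624 and 1437.5, lower by 0.22 in size without overlap. The 6 probe sets of SDHC above the filter ran from -0.19 to 0.11. The one at -0.19 had 998 and 1074 against 1227 and 1151, without overlap. The others gave -0.12 without overlap and -0.10, 0.04 and 0.11 with overlap.

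Complex III genes had a median of -0.20, and 5 of 7 were lower without overlap (71.4%, against 22.2% of all genes), with none higher without overlap (against 20.3%). The median stayed below 0 under all alternatives, from -0.22 to -0.09, the last of these without the second miR-483-5p array. CYC1, cytochrome c1, had 2947 and 2539.6 with miR-483-5p, 3087 and 3198 with the control and 3037 with miR-483-3p, a log2 difference of -0.20. Both miR-483-5p arrays were below every other array for this gene. UQCR11, a small subunit, had 2565 and 2228 against 3342 and 2941, and 2633 with miR-483-3p. Its difference was -0.39 (SE 0.15, limma adjusted p = 0.443), but a second probe set at 182.5 to 271 gave 0.11, so the direction rests on the choice of probe set. UQCRQ differed by -0.32 and UQCR10 by -0.34, the latter with both of its probe sets lower (-0.39 for the dimmer). UQCRB, the brightest in the controls, had 5243 and 5293 against 4405 and 5868, and UQCRC1, a large core protein, had 1338 and 1115 against 1065 and 1239.5; both overlapped.

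Complex IV, cytochrome c oxidase, has tissue forms of several subunits, and 13 of its 16 genes were bright enough to test. With miR-483-5p 11 of the 13 were lower, 8 without overlap (61.5%, against 22.2% of all genes), and 1 was higher without overlap (7.69%, against 20.3%). The median was -0.13 and ran from -0.16 to -0.08 over the alternatives. COX6B1, a subunit on the side of cytochrome c, had 1222 and 1133 with miR-483-5p, 1522 and 1606 with the control and 1491 with miR-483-3p. The gap of miR-483-5p from the control was -0.40 (SE 0.14, limma adjusted p = 0.409), while the testis form COX6B2 had 69.3 and 104 against 102 and 78.6, an overlap.

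In the other pairs of forms, the widely expressed gene and its tissue form were each compared with their own controls. COX4I1 had 3152 and 3146 against 3270.5 and 3651, and COX4I2, known from lung, had 79.4 and 73.9 against 87.0 and 96.3, with differences of -0.13 and -0.19. COX6A1 had 4536 and 4537.5 against 4776.5 and 5455, lower by 0.17 in size, whereas the muscle form COX6A2 had 73.3 and 80.0 against 52.7 and 58.8, higher by 0.31. Neither pair of groups overlapped for COX6A1 or COX6A2. The background level is unknown, so the dim signals of COX4I2, COX6A2 and COX6B2 do not show that these forms were expressed. COX8A differed by -0.32, and COX7A2 and COX7B by -0.09 and -0.07 with overlap. The tissue forms COX7A1, COX7B2 and COX8C had signals of 3.4 to 5.4, 17.3 to 29.4 and 1.2 to 9.5 and were not tested. COX6C and COX7C, with COX6A1 the brightest in the controls, differed by 0.09 and -0.13.

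ATP synthase genes were lower with miR-483-5p in 12 of 16 tested, 8 without overlap (50.0%, against 22.2% of all genes) and none higher without overlap (against 20.3%). Their median was -0.13 and ran from -0.17 to -0.06 over the alternatives. ATP5MC1, ATP5MC2 and ATP5MC3 encode the same mature subunit c, the membrane rotor, with different import sequences. ATP5MC1 had 344 and 371 with miR-483-5p, 552 and 582 with the control and 612 with miR-483-3p. The miR-483-5p arrays were the lowest and the miR-483-3p array the highest, and the difference of miR-483-5p from the control was -0.62 (SE 0.14, limma adjusted p = 0.332), 1.54-fold. ATP5MC2 had 3297.5 and 3098 against 3707 and 4269.6, a difference of -0.31, although a second probe set gave 0.17. ATP5MC3 had 6685.5 and 6915 against 5795 and 7017, an overlap, so of the 3 genes ATP5MC1 had the widest gap, a contrast between genes that was not tested.

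ATP5F1A and ATP5F1B, subunits of the catalytic part of ATP synthase, overlapped between the groups, and their controls lay far apart. ATP5F1A had 5987 and 6483 with miR-483-5p against 5178 and 7225, and ATP5F1B had 6874 and 7435 against 5603 and 7590.3. ATP5MG, at the dimer interface, had 3782 and 3675 against 4094 and 4456.5, and all 4 of its probe sets were lower, from -0.38 to -0.19. Most of these end in _x_at, the type that can take up related transcripts, so they need not be separate readings. Probe sets of that type represented 9 of the 85 members tested. ATP5MJ had 2116 and 1755 against 2245 and 2120.4, and its dimmer probe set had 319 and 297.5 against 517 and 474, a difference of -0.63. This dimmer probe set was singled out after its values were seen.

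A pair of genes outside the complexes was lower as well. ATP5IF1, the inhibitor of ATP synthase when it runs backwards, had 2617 and 2482 against 3132.5 and 2752, and COX7A2L, which joins complexes III and IV into supercomplexes, had 921 and 888 against 1055 and 1198. Their log2 differences were -0.20 and -0.30, with no overlap. Of 5 antisense, divergent or pseudogene transcripts, 3 were tested, and ATP5MC2P1, NDUFV1-DT and NDUFV2-AS1 differed by -0.27, 0.02 and -0.11. Among the 15 probe sets with several symbols, the probe set shared by RPL10 and NDUFS5 had 5094 and 5021 against 4529 and 5349.5, and that shared by UQCRH and UQCRHL had 5542 and 5589.6 against 5250.4 and 6226. Both overlapped and cannot be assigned to one gene.

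Probe sets of the same gene often differed in sign. Of 38 member genes with more than 1 probe set above the filter, 25 had probe sets of opposite sign between miR-483-5p and the control. The same share over all genes was not counted, and some of these spans were narrow, such as -0.03 to 0.03 in NDUFAF4. The widest spans were in COX5B (-0.29 to 0.80), COX4I1 (-0.26 to 0.83) and NDUFB8 (-0.29 to 0.34). In each of these genes the positive value came from a dim probe set. That of COX5B had 89.3 and 89.9 against 59.6 and 21.4, and that of COX4I1 had 114 and 72.9 against 65.0 and 17.6. That of NDUFB8 had 146 and 159 against 135 and 95.0. The 3 brighter probe sets of COX5B all gave -0.29 to -0.24. Over all 149 member probe sets above the filter, 100 were lower with miR-483-5p and the median was -0.11.

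With miR-483-3p, which was measured once against the same scrambled arrays, 60 of the 85 members were lower, against 50.2% of all genes, and the median was -0.05 against 0.00. By limma 0 members and 0 of all genes (0%) passed at an adjusted p under 0.05. At an unadjusted p under 0.05, 2 members were lower (2.35%, against 4.05% of all genes) and 0 higher (against 2.51%), a share below the background. NDUFAF3 had 101 with miR-483-3p against 206 and 179, a log2 difference of -0.75 (SE 0.22, limma adjusted p = 0.621). NDUFV3 had 369 against 585 and 516, a difference of -0.54 (SE 0.18, limma adjusted p = 0.670). COX6B2, NDUFA3 and NDUFS7 followed with 0.41, -0.36 and -0.34. The NDUFAF assembly factors of complex I had a lower median than the subunits of any complex, -0.15, with 7 of 8 lower. This median ran from -0.21 to -0.08 over the alternatives, and with the mean of probe sets 5 of the 8 were lower. The 7 complex I assembly factors tested outside the NDUFAF symbols had a median of -0.02 with miR-483-3p, with 4 lower. The median of the members became -0.10 without the first scrambled array and -0.02 without the second.

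Between the arms, miR-483-5p against miR-483-3p, the member median was -0.03, with 48 of 85 lower with miR-483-5p. By limma 0 members and 0 of all genes (0%) had an adjusted p under 0.05, and at an unadjusted p under 0.05 there were 2 lower members (2.35%, against 3.24%) and 0 higher (against 3.41%). ATP5MC1 differed by -0.73 (SE 0.17, limma adjusted p = 0.589) and NDUFA7 by -0.65 (SE 0.20, limma adjusted p = 0.667), and their miR-483-3p signals lay above or between the controls. NDUFB7 had 424 and 306 with miR-483-5p and 243 with miR-483-3p, a difference of 0.51, and its other probe set gave -0.21. COX6B2 and COX6B1 differed by -0.46 and -0.33.

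The scrambled arrays differed from each other by amounts close to the differences between mimics, so the control pair was examined complex by complex. On the log2 scale the first minus the second scrambled array had a median of -0.06 over the members and 0.00 over all genes, and 52 of 85 members were higher on the second. The median size of the gap was 0.13, against 0.16 over all genes, and single members ran from -0.48 to 0.38. ATP synthase had the widest median, -0.15, with 14 of 16 genes higher on the second array, and complex IV had -0.10 with 10 of 13. All 5 core subunits of complex I were higher on the second array (median -0.08), while 17 of 28 accessory subunits were higher on the first (median 0.06). Complexes II and III had medians of -0.13 and -0.05. The widest gaps were in ATP5F1A, ATP5F1B, NDUFA1, UQCRB and SDHA, at -0.48, -0.44, -0.43, -0.41 and -0.40.

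The gap between the controls went with brightness in members and other genes alike. Among members with a mean signal of 3000 or more, 20 of 21 were higher on the second scrambled array with a median of -0.20, and among other genes of that brightness 311 of 333 were, with a median of -0.24. Between 1000 and 3000 the medians were -0.05 for both. The difference between miR-483-5p and scrambled is given for the same classes, and the part of brightness in it was not tested. For signals of 1000 to 3000 its median was -0.16 over 41 members, 30 of them lower (73.2%), and 0.04 over 1184 other genes, 42.3% lower. At 3000 or more it was -0.11 over 21 members and 0.03 over 333 others, and from 300 to 1000 it was -0.03 over 13 members and 0.02 over 3565 others. Below 300 it was -0.07 over 10 members, 6 of them lower, and -0.03 over 9424 others, 54.8% lower. These brightness classes were chosen after the values were seen. The miR-483-5p pair differed too, with a median of 0.07 for the first minus the second array over the members and 0.01 over all genes. This gap was 0.16 for the complex I accessory subunits and 0.20 for complex III, beside 0.02 for complex IV and 0.00 for ATP synthase. The accessory subunits had a median deviation from their own mean of 0.01 on the first miR-483-5p array and -0.12 on the second. For complex III these deviations were 0.00 and -0.10.

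**Figure D4:**
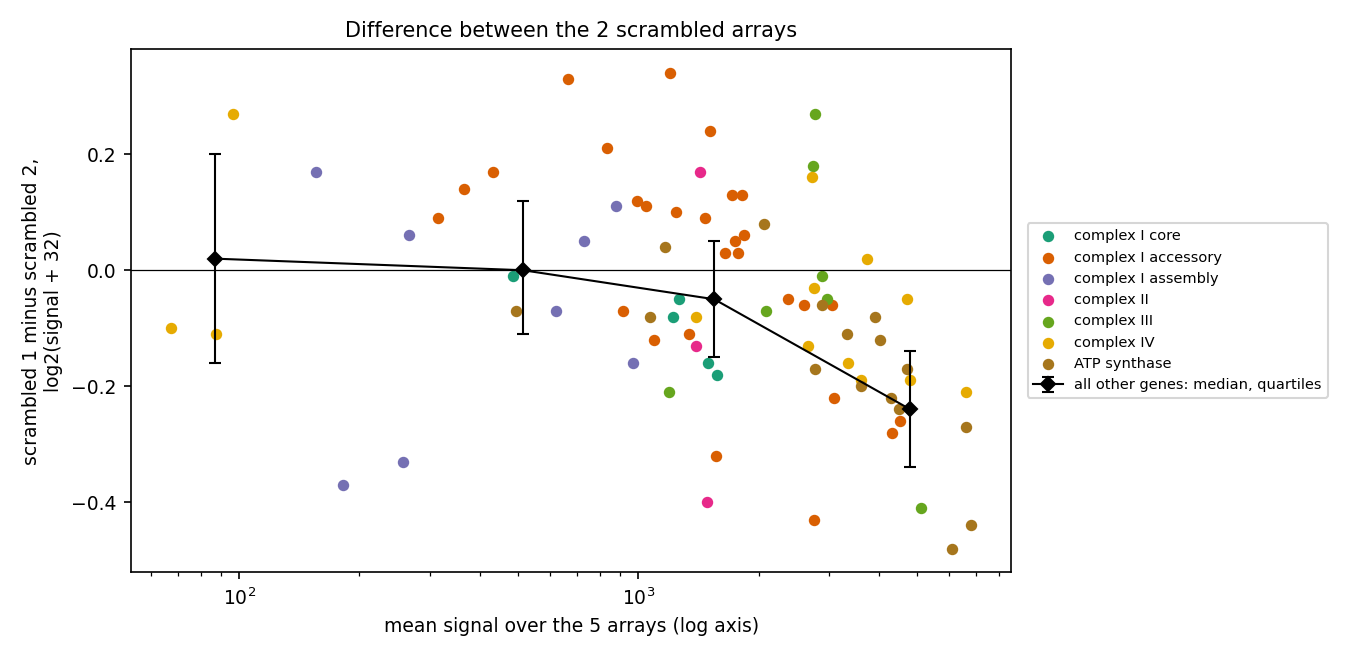
First minus second scrambled array, in log2(signal + 32), against the mean signal over 5 arrays (log axis) for the tested members, coloured by complex; diamonds and bars give the median and quartiles of all other genes in 4 brightness classes. Of the 21 members of 3000 or more, mostly of ATP synthase, complex IV and the complex I accessory subunits, 20 lie below 0.

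**Figure D5:**
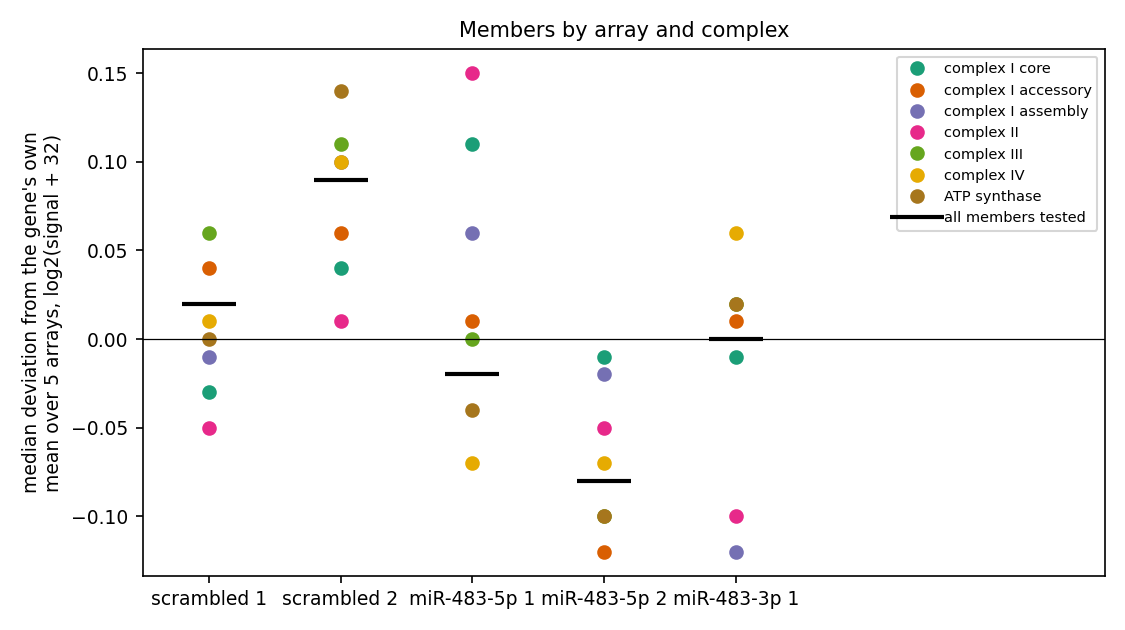
Median deviation of the tested genes of each complex from their own mean over the 5 arrays, in log2(signal + 32), per array; the black bar is the median of all members tested. The members' median is 0.02 and 0.09 on the scrambled arrays, -0.02 and -0.08 on the miR-483-5p arrays and 0.00 on the miR-483-3p array.

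Other genes of the pathway, which are outside the symbol rule, had list medians from -0.09 to 0.01 with miR-483-5p. Of 21 genes tested for complex IV assembly and copper delivery, 13 were lower, 11 without overlap (52.4%, against 22.2% of all genes), with a median of -0.09, and 5 were higher without overlap (23.8%, against 20.3%). SCO1, which delivers copper, had 353 and 408 against 488 and 466, and COA6 had 1074 and 1053 against 890.5 and 919. The other assembly factors of complex I had a median of -0.04 over 7 genes and those of complexes II, III and V -0.06 over 14 genes. CYCS, cytochrome c, had 4635 and 4908 against 4495.5 and 4997, an overlap. Of the 11 regulators tested, 6 were lower, with a median of -0.05. NRF1 had 271.5 and 244 against 224 and 185 and YY1 1208 and 1195 against 1398 and 1220.4, in opposite directions. GABPB1, a subunit of GABP, had 404 and 372.5 against 241 and 315, higher by 0.45, and ESRRA, an ERR receptor, had 281.5 and 258 against 341 and 344.5, a difference of -0.31. Neither gene overlapped between the groups, and the limma adjusted p was 0.421 and 0.486. None of the genes on these lists passed the limma test at an adjusted p under 0.05, and 2 were higher and 1 lower at an unadjusted p under 0.05, where 5.30% and 5.41% of all genes were.

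The ribosomal protein genes, another set of bright genes, were set beside the members. Of 58 tested, 47 were lower with miR-483-5p (81.0%, beside 69.4% of the members), and the median was -0.09, beside -0.11. Without overlap, 15 were lower (25.9%, beside 47.1% of the members and 22.2% of all genes). Without overlap, 2 were higher (3.45%, beside 5.88% and 20.3%). At an unadjusted limma p under 0.05, 5 were lower (8.62%, beside 8.24% and 5.41%) and 1 higher (1.72%, beside 1.18% and 5.30%). Their scrambled arrays differed by a median of -0.33, and without the second scrambled array their median with miR-483-5p turned to 0.09. The members' median stayed below 0 in that setting, at -0.09, while ATP synthase had a median of -0.06 with 9 of 16 lower.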

How the data were processed

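Per the labels' protocols, biotin-labelled cRNA was hybridised to Affymetrix HG-U133 Plus 2 chips, and the authors deposited a linear intensity for each probe set on each array. GCOS and Partek are named in the submitters' processing notes, with no version; their roles, with the signal method, are among the points not given in the sources used here. Genes were named from the platform annotation; all 174 member probe sets with 1 symbol matched RefSeq by gene identifier, and updating symbols changed none. Each of 19775 genes was represented by its brightest probe set, and genes with a mean log2 value below the 40th percentile over the array, equal to a signal of 27.2, were not tested. Values as log2(signal + 32) were fitted in limma 3.58.1 (R 4.3.3) with 1 mean per group over all 5 arrays, 2 residual degrees of freedom and a prior of 4.96, two-sided, with Benjamini-Hochberg adjustment over 14591 genes and a threshold of 0.05. The fit was tried on simulated data with shifts larger than any member difference here, so that trial does not cover differences of the sizes reported. An SE is the moderated standard error of a difference.

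Members and lists were chosen with earlier results of these data known. Genes were named by rule: complex II and CYC1; per role the 3 brightest in the controls and the widest non-overlapping difference each way; the 5 lowest p per comparison; the 5 widest control gaps; the 3 widest disagreements between probe sets; and paralog pairs. Others were named after their values were seen. The alternatives tried were quantile normalization, median centring, a 60th percentile filter or none, pseudocounts of 1 and 100, the mean of probe sets, every probe set, an intensity trend and each paired array left out.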

Additional observations from a re-analysis of the deposited data

How the results depend on the processing

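The member median for miR-483-5p against the control stayed below 0 under all 13 alternatives, from -0.15 to -0.07, and no member passed an adjusted p under 0.05 under any (lowest 0.0555, with an intensity trend). Over all genes, the count passing for miR-483-5p was 1 with the 60th percentile filter, 39 with the trend, 37 with median centring and 33 with a pseudocount of 100. For miR-483-3p it was 1, 2 and 1 with the trend, median centring and a pseudocount of 100, and between the arms 7 with median centring. Members at an unadjusted p under 0.05 for miR-483-5p numbered 15 with the trend, 15 with a pseudocount of 100, 13 with quantile normalization and 5 to 13 with 1 array left out, against 8. For miR-483-3p they numbered 5 over every probe set and 1 to 2 with 1 array left out, and the member median ran from -0.10 to -0.02 with 1 array left out. The direction reversed for UQCR11 with its other probe set (0.11) and for NDUFB7 between the arms with its other probe set (-0.21); the cause was not tested. Of the medians by complex and setting, 37 moved by more than 0.05 and 236 did not. That limit is the SD between replicate arrays of the median over all members, not of single complexes. The median gap between the scrambled arrays ran from -0.15 for ATP synthase to 0.06 for the complex I accessory subunits. The number of arrays, 2 against 2, limits what can be told apart.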
